A study of Mus musculus with 8 samples.

Results

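The fibroblast growth factor (FGF) receptors Fgfr1, Fgfr2, Fgfr3 and Fgfr4, the ligands Fgf1, Fgf2, Fgf7, Fgf15 and Fgf21, and the co-receptor beta-Klotho, Klb, were examined in 8 mouse liver tumour lines. These 10 genes are a named list, with known roles in the liver and in cholangiocarcinoma, and the rule for it uses no measured value, though earlier results of these data were known when it was written. All 10 of the 10 were measured, among 22180 genes with a probe set that names them alone.

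FGF receptors are tyrosine kinases of the cell surface that pair up when a ligand and heparan sulfate bind, and they signal mainly through the adaptor Frs2 to the Ras and MAP kinase cascade. Fgf1, Fgf2 and Fgf7 act on nearby cells and are held by heparan sulfate. Fgf15 (the mouse counterpart of human FGF19) and Fgf21 circulate as hormones and need beta-Klotho as a partner of the receptor. In the liver, intestinal Fgf15 acts through Fgfr4 and Klb to lower bile acid synthesis, and the hepatocyte itself secretes Fgf21 under fasting or stress. Fusions of FGFR2 are known from human intrahepatic cholangiocarcinoma, and the FGF19 and FGFR4 pair is a known driver in part of human hepatocellular carcinoma.

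Groups of 4 lines each of intrahepatic cholangiocarcinoma (ICC) and hepatocellular carcinoma (HCC) were compared, each line being 1 clone on 1 Affymetrix array. Both cancers derive, by the series title, from transformed hepatocytes, here of C57BL/6 mice given the vector pCaMIN, which carries c-Myc and NrasG12V, so Myc and an activated Ras were shared by every line. The vector reached the liver by focal electroporation for ICC and by hydrodynamic tail-vein injection for HCC, and tumour type and delivery cannot be told apart. ICC9 and ICC10 carry a female label and ICC2.7 and ICC2.9 a male label, while HCC1 and HCC4 are male-labelled and HCC2.1 and HCC2.4 female-labelled. The cells were untreated and grew in DMEM with 10% fetal calf serum in 7.5% CO2. The labels name no separate animals or tumours, so the spread measured here is that between these lines.

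Array medians lay between 5.02 and 5.09 on the log2 scale. The 8 columns of values have only 7 independent directions, and the missing one weighs most on ICC9 (0.782 of a unit vector). ICC9 thus adds little of its own. The main fits below still count all 8 columns as independent, so their p-values may be too small. With the missing direction in the model limma called 12 genes between types in place of 58, and 280 between sex labels in place of 653. For the interaction of type and sex label it called 255 in place of 0. Of 10 hepatocyte markers, 2 (Fah and Hnf4a) had a mean signal above that of the median gene (5.66), as had 3 of 8 measured cholangiocyte markers (Krt7, Krt19 and Sox9). Mean levels of the hepatocyte list ran from 5.0 to 5.18 in ICC and from 5.15 to 5.77 in HCC lines. In that list the female-labelled HCC lines stood apart for Apob and Hnf4a. They did not for Fah (8.73 and 8.70, against 9.32 in HCC4) or Asgr1 (5.03 and 5.12, against 5.82 in HCC1), for example. Apob, the main protein of secreted lipoproteins, measured 8.80 and 8.79 in HCC2.1 and HCC2.4 and 3.69 to 5.34 in the other lines, and Hnf4a measured 7.26 and 7.06 there and 5.32 to 5.92 elsewhere. Albumin, Alb, lay between 4.12 and 4.64 in every line. None of 8 endothelial markers and 1 of 7 leukocyte markers (Cd68) lay above the median gene, and the mean of the endothelial list stayed between 4.73 and 4.92. Of 9 fibroblast and stellate markers, Pdgfrb, Col1a1 and Acta2 lay above it. Limma called 0 genes of these marker lists between the types. Of each list 1 or 2 had an unadjusted p under 0.05 (limma), beside 14.1% of all genes.

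None of the 10 FGF genes differed between ICC and HCC lines beyond the spread of the lines. Limma called 0 of the 10 at an adjusted p under 0.05, where 0.261% of all genes tested were called, and 0 of the 10 had an unadjusted p under 0.05, against 14.1% of all genes. In none of them did the 4 ICC lines separate from the 4 HCC lines without overlap, as they did in 8.63% of all genes. Adjusted p-values ran from 0.519 for Fgf15 to 0.957 for Fgfr2. Differences were positive in 7 and negative in 3, with a median of 0.08 log2 units and a median size of 0.085, beside a median of 0.00 and a median size of 0.128 over all genes. The 95% interval of each difference lay within 1 log2 unit of 0 for all 10, in a fit that counts the lines as independent. With lines of one type and sex label as a random block (correlation 0.398), limma's adjusted p of Fgfr1 went from 0.696 to 0.913. Intervals from that fit were not assessed, so the bound may not hold there. Under the 20 alternatives run limma also called 0 of the 10. In the female-labelled lines alone (2 lines per type) 4 of the 10 had an unadjusted p under 0.05 (limma), beside 5689 of all 22180 genes.

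**Figure D1:**
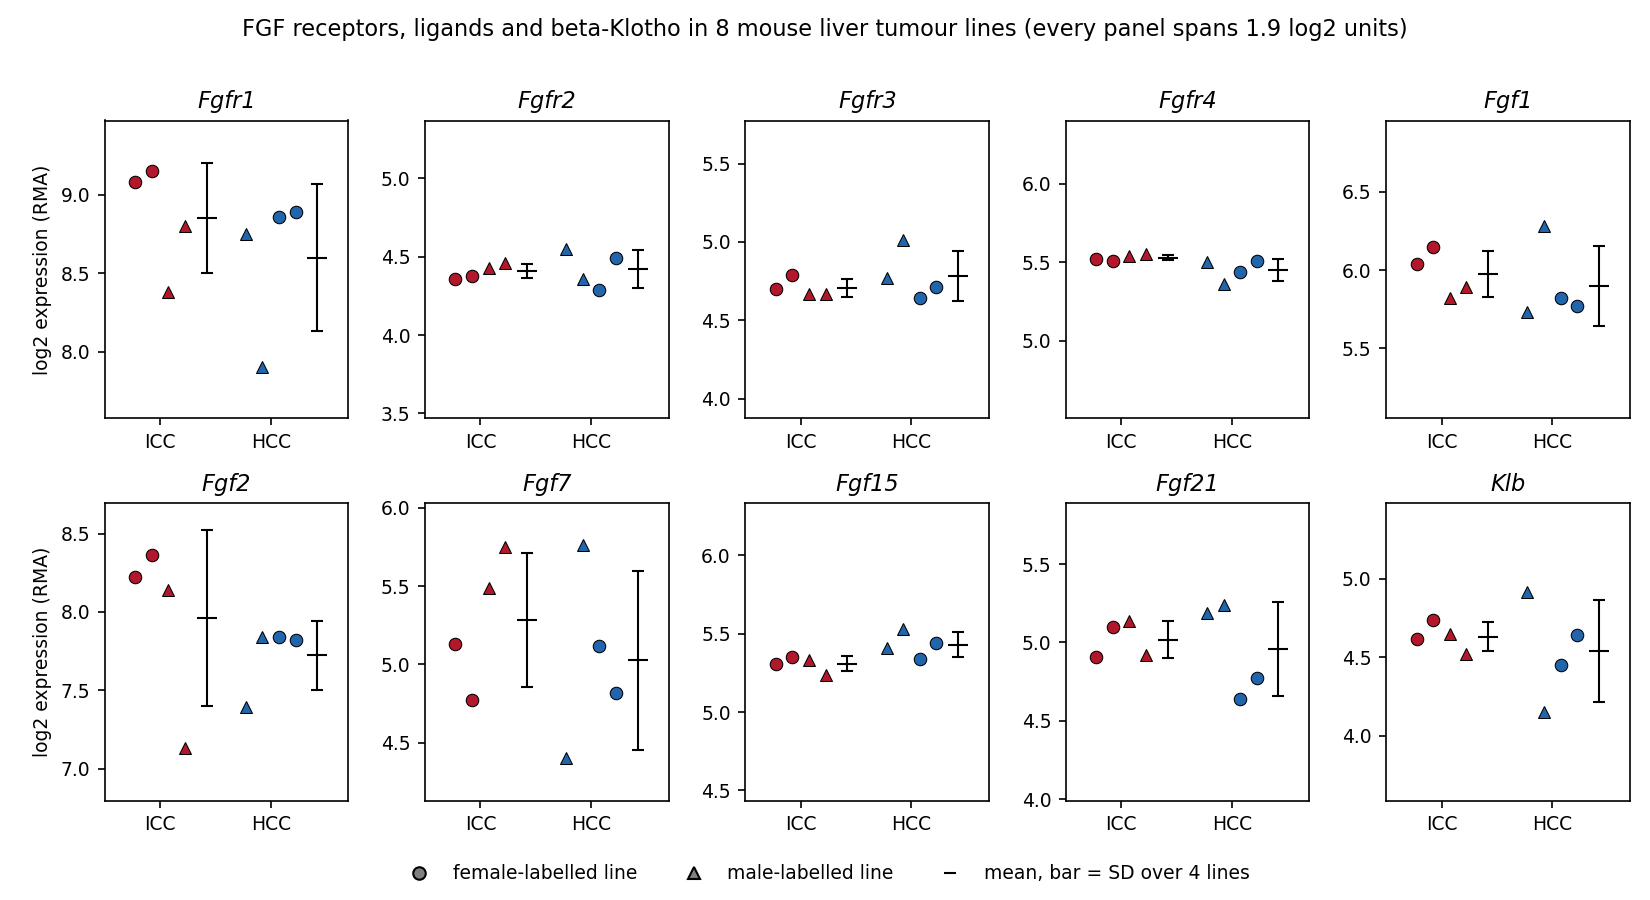
Each panel plots the log2 expression of 1 gene (y axis, RMA values) in the 4 ICC (red) and 4 HCC (blue) lines, with circles for female- and triangles for male-labelled lines and the mean with its SD beside them. ICC and HCC points overlap in all 10 panels, and Fgfr1, Fgf2 and Fgf7 spread most over the lines, by 1.25, 1.23 and 1.36 log2 units.

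Fgfr1, the receptor used by Fgf2, gave a strong signal in all lines. It measured 9.08 in ICC9, 9.15 in ICC10, 8.38 in ICC2.7 and 8.80 in ICC2.9, and 8.75 in HCC1, 7.90 in HCC4, 8.86 in HCC2.1 and 8.89 in HCC2.4 (log2 levels). HCC4 stood lowest, the female-labelled ICC pair stood highest, and 3 of the HCC lines fell inside the range of the ICC lines. The means were 8.85 ± 0.35 in ICC and 8.60 ± 0.47 in HCC lines (SD, n = 4 each), a log2 difference of 0.25 (SE 0.25, limma's adjusted p = 0.696). The 95% interval ran from a ratio of 0.803 to one of 1.77. With each line left out in turn the difference ran from 0.02 (without HCC4) to 0.41 (without ICC2.7).

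Fgfr2, the receptor whose epithelial isoform answers Fgf7 and which is rearranged in human ICC, was level over the lines. It measured 4.36, 4.38, 4.43 and 4.46 in ICC9, ICC10, ICC2.7 and ICC2.9, and 4.55, 4.36, 4.29 and 4.49 in HCC1, HCC4, HCC2.1 and HCC2.4 (log2 levels). The ICC values lie inside the HCC range, and the 8 lines together span 0.26 log2 units, beside 0.57 for the median gene. The log2 difference was -0.015 (SE 0.09, limma's adjusted p = 0.957), with an interval from -0.21 to 0.18. One probe set covers Fgfr2, so its epithelial and mesenchymal isoforms were not told apart.

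Fgfr3, a receptor with splice isoforms like those of Fgfr2, measured 4.70, 4.79, 4.67 and 4.67 in the ICC lines and 4.77, 5.01, 4.64 and 4.71 in the HCC lines, each in the order given for Fgfr2. HCC4 was the highest line, and the other 7 lay within 4.64 to 4.79. The log2 difference was -0.075 (SE 0.10, limma's adjusted p = 0.776).

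Fgfr4, the main FGF receptor of hepatocytes, varied least of the 10. It measured 5.52, 5.51, 5.54 and 5.55 in the ICC lines and 5.50, 5.36, 5.44 and 5.51 in the HCC lines (log2 levels, same order). HCC4 was lowest, and the ICC and HCC ranges met at 5.51. The means were 5.53 ± 0.02 and 5.45 ± 0.07 (SD, n = 4 each), a log2 difference of 0.08 (SE 0.07, limma's adjusted p = 0.683), and the interval ended at a ratio of 1.18. The range over lines, 0.19 log2 units, was wider than that of 1.63% of genes or fewer.

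Klb, which joins Fgfr4 or Fgfr1 to bind the hormonal FGFs, measured 4.62, 4.74, 4.65 and 4.52 in the ICC lines. In the HCC lines it measured 4.92 in HCC1, 4.15 in HCC4, 4.45 in HCC2.1 and 4.64 in HCC2.4 (log2 levels). The highest and the lowest value thus came from the male-labelled HCC pair, with the ICC lines between them. Means were 4.63 ± 0.09 and 4.54 ± 0.32 (SD, n = 4 each), a log2 difference of 0.09 (SE 0.15, limma's adjusted p = 0.831). It ran from -0.04 without HCC4 to 0.22 without HCC1.

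Fgf2, a ligand of Fgfr1 that cells release without a signal peptide, was the ligand of the list with the strongest signal. It measured 8.22 in ICC9, 8.36 in ICC10, 8.14 in ICC2.7 and 7.13 in ICC2.9, and 7.39 in HCC1, 7.84 in HCC4, 7.84 in HCC2.1 and 7.82 in HCC2.4 (log2 levels). ICC9, ICC10 and ICC2.7 stood above every HCC line, while ICC2.9 stood below all of them. The means were 7.96 ± 0.56 and 7.72 ± 0.22 (SD, n = 4 each), a log2 difference of 0.24 (SE 0.26, limma's adjusted p = 0.721). With each line left out in turn the difference ran from 0.11 (without ICC10) to 0.52 (without ICC2.9), with limma's adjusted p at 0.222 for the latter. It was 0.13 without HCC1 and 0.15 without ICC9.

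Fgf1, which binds all FGF receptors, measured 6.04, 6.15, 5.82 and 5.89 in the ICC lines and 5.73, 6.28, 5.82 and 5.77 in the HCC lines (log2 levels). HCC4 was highest and HCC1 lowest of all lines. The log2 difference was 0.075 (SE 0.14, limma's adjusted p = 0.853). With each line left out in turn it ran from 0.02 (without ICC10 or HCC1) to 0.20 (without HCC4).

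Fgf7, known as a mesenchymal ligand for the epithelial isoform of Fgfr2, spread most of the 10 genes. It measured 5.13 in ICC9, 4.77 in ICC10, 5.49 in ICC2.7 and 5.75 in ICC2.9, and 4.40 in HCC1, 5.76 in HCC4, 5.12 in HCC2.1 and 4.82 in HCC2.4 (log2 levels). The male-labelled HCC pair held the lowest and the highest value, and the 4 female-labelled lines lay between 4.77 and 5.13. The log2 difference between the types was 0.26 (SE 0.30, limma's adjusted p = 0.744), with a 95% interval from -0.42 to 0.94. It was 0.05 without HCC1 and 0.51 without HCC4.

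Fgf15, the intestinal hormone, measured 5.31, 5.35, 5.33 and 5.24 in the ICC lines and 5.41, 5.53, 5.34 and 5.44 in the HCC lines (log2 levels). HCC1, HCC4 and HCC2.4 stood above all ICC lines, and HCC2.1 fell inside the ICC range. The log2 difference was -0.12 (SE 0.08, limma's adjusted p = 0.519), the smallest adjusted p of the 10 genes. Fgf15 is the 1 gene of the list with 2 probe sets, and they disagreed. The other, with the lower mean, measured 5.23, 5.27, 5.37 and 5.42 in the ICC lines and 5.56, 5.18, 5.26 and 5.12 in the HCC lines. HCC4 was thus highest on one probe set and second lowest on the other, where the difference between types was 0.04.

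Fgf21, the hepatocyte hormone of fasting and stress, measured 4.91, 5.10, 5.14 and 4.92 in the ICC lines and 5.19, 5.24, 4.64 and 4.77 in the HCC lines (log2 levels). The male-labelled HCC pair was highest and the female-labelled HCC pair lowest, with all ICC lines between them. Over all lines the log2 difference was 0.06 (SE 0.15, limma's adjusted p = 0.902). Fgfr1, Fgf1 and Fgf2 were the genes of the list with a mean signal above the median gene. Probe sets differ in how brightly they report, and signal over background was not assessed, so for the other 7 genes a flat profile may be that of a dim probe set, which was not tested.

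**Figure D2:**
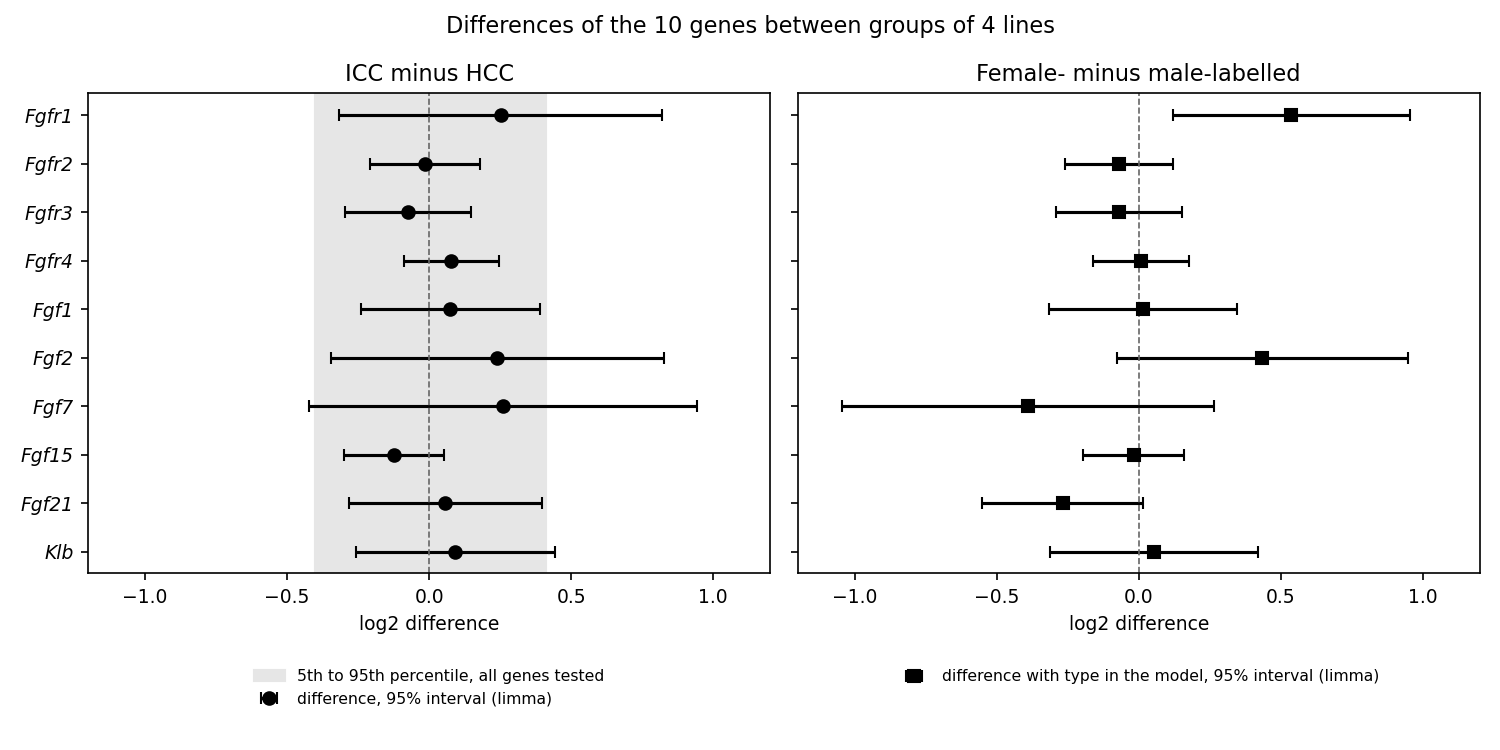
Points give the log2 difference of each of the 10 genes (x axis) for ICC minus HCC lines (left) and for female- minus male-labelled lines with type in the model (right), with limma's 95% intervals; the grey band on the left spans the 5th to the 95th percentile of all genes, -0.40 to 0.41. All 10 intervals on the left cross 0, and on the right that of Fgfr1 (0.54, from 0.12 to 0.95) does not.

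The sex labels of the lines gave a further comparison. With type in the model, female- and male-labelled lines differed in 2.94% of all genes (limma) and in 0 of the 10 FGF genes. Of the 10, 1 (Fgfr1) had an unadjusted p under 0.05 (limma), beside 3874 of all 22180 genes. Fgfr1 was higher in the female-labelled lines by 0.54 log2 units (SE 0.18, limma's adjusted p = 0.177). Its order by pair was female-labelled ICC (9.08 and 9.15), female-labelled HCC (8.86 and 8.89), male-labelled ICC (8.38 and 8.80) and male-labelled HCC (7.90 and 8.75). All 4 female-labelled lines stood above all 4 male-labelled ones, as in 4.41% of all genes. In either direction the labels separated without overlap in 1943 of all 22180 genes and in 1 of the 10. Within the pairs of male-labelled lines, though, the gap of Fgfr1 was 0.42 and 0.85, and the last 2 pairs overlap. Fgf2 differed by 0.435 (SE 0.22, limma's adjusted p = 0.363), Fgf21 by -0.27 (SE 0.12, 0.311) and Fgf7 by -0.39 (SE 0.28, 0.541). Fgf7 was called under 1 of 13 alternatives, without HCC1 (-0.72, limma's adjusted p = 0.0408), while without HCC4 its difference was -0.17 (0.773). Fgfr1 was called under 0 of 14, with adjusted p from 0.0504 without HCC1 to 0.511 with the lines of one type and label averaged. Each sex label goes with 1 pair of lines in a type, so sex and a shared origin of a pair cannot be told apart. This test counts the 2 lines of a pair as independent. With the pairs as a random block (correlation 0.175) limma called 334 genes in place of 653, and with each pair averaged it called 6 (1506 at an unadjusted p under 0.05). The averaged fit ended the sex-label calls of all 8 pathway genes named below. That fit has only 4 values per gene for type and sex label, so it could call few genes, and these losses alone decide nothing.

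The test of whether the ICC minus HCC difference depends on the sex label called 0% of all genes and 0 of the 10 (limma, with 4467 genes and 1 of the 10 at an unadjusted p under 0.05). That 1 was Fgf21, where the difference was 0.30 in the female-labelled lines and -0.185 in the male-labelled ones (interaction 0.485, SE 0.18, limma's adjusted p = 0.195).

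HCC4 gave the highest or the lowest value in 8 of the 10 genes, beside 32.0% of all genes. It was highest for Fgfr3, Fgf1, Fgf7, Fgf15 and Fgf21 and lowest for Fgfr1, Fgfr4 and Klb. On the other probe set of Fgf15 it was second lowest (5.18), and Fgfr4 spanned only 0.19 log2 units over the lines. HCC1 was an extreme in 4 (26.1% of all genes), ICC2.9 in 3 (30.5%), HCC2.1 in 3 (25.1%) and ICC10 in 2 (27.0%). ICC9, ICC2.7 and HCC2.4 were in none (4.83%, 30.3% and 24.2% of all genes). The count for HCC4 was made after its values were seen and carries no test.

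For the 3 genes that spanned at least 1 log2 unit, the most similar profiles were sought among 3213 other genes with such a span, by the mean absolute difference of gene-centred log2 values over the 8 lines. Nearest to Fgfr1 were Parp8 (0.081), Zfp984 (0.091) and Olfr1008 (0.107), beside a median of 0.493 over all candidates. Parp8, a gene of the ADP-ribosyltransferase family, measured 10.81 and 10.90 in the female-labelled ICC lines and 9.58 in HCC4, the same top pair and the same lowest line. Nearest to Fgf2 were Pcdhb14 (0.147), Trib2 (0.147) and Hbegf (0.161, a ligand of the EGF receptor, at 10.52 in ICC2.9 and at 11.17 to 11.85 in the other lines). Nearest to Fgf7 were Edil3 (0.142, a secreted integrin ligand, at 10.31 in HCC4, 9.20 in HCC1 and 9.16 in HCC2.1), Col4a6 (0.149, a basement membrane collagen chain) and Zfp101 (0.162). With 8 lines and this many candidates such likeness is a description of these arrays, and the lines share the missing direction.

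Of 107 further genes of the pathway in 6 lists, 103 were measured, and limma called 0 of them between ICC and HCC (16, or 15.5%, at an unadjusted p under 0.05, beside 14.1% of all genes). Their median difference was -0.01 log2 units. Of the 103, 67 had a mean signal above the median gene. For the others, Fgf16, Nr1h4, Spry3 and Cyp7a1 among them, small differences may be those of dim probe sets, which was not tested. The lists were written with earlier results of these data known.

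The 17 other FGF ligands had 0 calls, with a median difference of -0.07. Of them 2, or 11.8%, had an unadjusted p under 0.05 (limma), beside 14.1% of all genes. Fgf16 lay between 3.91 and 4.24 in the ICC lines and between 4.39 and 4.60 in the HCC lines, with no overlap (log2 difference -0.34, SE 0.10, limma's adjusted p = 0.204), and its lowest line was ICC2.7. Fgf18, a ligand known from bone and lung growth, lay between 5.26 and 5.46 in the ICC lines and between 5.41 and 5.89 in the HCC lines (-0.29, SE 0.12, 0.313).

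Among 24 co-receptors, decoy receptors and heparan sulfate genes limma called 0 between types (median difference -0.05). Of them 4, or 16.7%, had an unadjusted p under 0.05 (limma), beside 14.1% of all genes. Fgfrl1, an FGF receptor without a kinase domain, measured 8.41, 8.31, 8.68 and 8.75 in the ICC lines and 8.97, 8.92, 8.86 and 8.85 in the HCC lines. Every ICC line stood below every HCC line, with a log2 difference of -0.36 (SE 0.11, limma's adjusted p = 0.210), which did not pass. Ext1, a polymerase of heparan sulfate, lay between 10.48 and 10.90 in the ICC lines and between 11.02 and 11.13 in the HCC lines (-0.33, SE 0.10, 0.211).

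Between the sex labels 3 of these 24 were called, beside 2.94% of all genes. Flrt3, a membrane protein that binds FGF receptors, was higher in the female-labelled lines by 1.125 log2 units (limma's adjusted p = 0.0123), at 8.80 to 9.03 there and 7.42 to 8.28 in the male-labelled lines. This call was lost without ICC9 (adjusted p = 0.0617) and with the pairs averaged (0.239), and held under the other 12 alternatives, the random block included (0.0275). Its relative Flrt2 was lower by 0.915 (log2 difference -0.915, adjusted p = 0.0233), with HCC2.1 and HCC2.4 at 7.46 and 7.33 and the other lines at 8.45 to 9.47. These are the 2 lines that stood apart for Apob and Hnf4a, and the part of that in the result was not tested. Sulf2, which trims sulfate from heparan chains at the cell surface, was lower as well (-0.795, adjusted p = 0.0491). With the missing direction in the model limma called neither Flrt2 (adjusted p = 0.0584) nor Sulf2 (0.110). Flrt2 was also lost without ICC9, ICC2.7, HCC2.1 or HCC2.4 (adjusted p up to 0.0904), and Sulf2 without any single line other than HCC1 (up to 0.179). With the random block Flrt2 was called (0.0453) and Sulf2 was not (0.0916), and with the pairs averaged neither was (0.368 and 0.469).

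The 18 measured adaptors and kinases next to the receptor had 0 calls between types and 0 between sex labels (limma). At an unadjusted p under 0.05 limma put 1 and 4 of them, beside 3127 and 3874 of all 22180 genes. The adaptor Shc1 measured 10.36, 10.35, 10.10 and 10.06 in the ICC lines and 9.76, 9.47, 9.96 and 10.08 in the HCC lines (log2 difference 0.40, SE 0.14, limma's adjusted p = 0.268), with HCC2.4 inside the ICC range. The kinase Map2k1 differed by -0.23 (SE 0.15, 0.527). Frs2 itself was not analysed here.

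The 18 feedback and immediate target genes had 0 calls between types (limma) and a median difference of 0.21. Of them 4, or 22.2%, had an unadjusted p under 0.05 (limma), beside 14.1% of all genes. Dusp4, a phosphatase of MAP kinases, lay between 10.66 and 11.01 in the ICC lines and between 11.11 and 11.31 in the HCC lines (log2 difference -0.33, SE 0.10, limma's adjusted p = 0.215). Spry3, a Sprouty inhibitor, lay between 4.65 and 5.48 in the ICC lines and between 3.64 and 4.88 in the HCC lines (0.82, SE 0.29, 0.253). Between sex labels Spry3 was called, lower in the female-labelled lines (-0.74, limma's adjusted p = 0.0411). That call was lost with the missing direction in the model (0.0959), without any 1 line other than HCC4 (up to 0.16), with the random block (0.0946) and with the pairs averaged (0.329).

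The 18 genes around the Fgf15 and Fgf21 hormones in the liver also had 0 calls between types (limma, median difference -0.07). Of them 4, or 22.2%, had an unadjusted p under 0.05 (limma), beside 14.1% of all genes. Ppargc1a, a coactivator of fasting metabolism, measured 6.64, 6.96, 5.25 and 6.09 in the ICC lines and 7.70, 8.05, 7.94 and 8.15 in the HCC lines. The types did not overlap, and the log2 difference of -1.73 (SE 0.33, limma's adjusted p = 0.0769) did not pass, though it did under 4 of the 20 alternatives. Nr1h4, the bile acid receptor that induces Fgf15 in the intestine, lay between 4.61 and 4.79 in the ICC lines and between 4.17 and 4.50 in the HCC lines (0.35, SE 0.10, 0.168). Cyp7a1, the bile acid synthesis enzyme that Fgf15 lowers in liver, stayed between 2.68 and 2.91 in all lines, below the lower quartile of gene levels (4.33). Atf4, a stress factor that can induce Fgf21, was called lower in the female-labelled lines (9.62 to 9.68, against 9.94 to 10.57 in the male-labelled lines, log2 difference -0.67, limma's adjusted p = 0.0326). With the missing direction the call was lost (0.0832), as it was without any 1 line other than HCC4 (up to 0.145), with the random block (0.071) and with the pairs averaged (0.42).

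Of 8 measured splicing factors known to shape the FGF receptor isoforms, limma called 3 between sex labels, beside 2.94% of all genes. It called 0 between types, with 1 at an unadjusted p under 0.05, beside 14.1% of all genes. Esrp2, an epithelial splicing regulator that favours the isoform of Fgfr2 which binds Fgf7, measured 6.20 and 6.41 in ICC9 and ICC10, 5.01 and 5.18 in ICC2.7 and ICC2.9, 6.85 and 5.74 in HCC1 and HCC4, and 7.15 and 7.29 in HCC2.1 and HCC2.4. It was higher in the female-labelled lines by 1.07 log2 units (limma's adjusted p = 0.0460), and its difference between types was -1.06 (SE 0.42, 0.304). Rbm47, another epithelial splicing factor, was higher in the female-labelled lines by 1.85 (adjusted p = 0.0307), at 6.69 to 6.97 there and at 4.13 to 5.96 in the male-labelled lines. Ptbp2, a repressor of exons, was lower there (-0.77, adjusted p = 0.0140), at 8.18 to 8.58 against 8.86 to 9.38.

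With the missing direction in the model Ptbp2 was still called (adjusted p = 0.0437), but Esrp2 (0.0972) and Rbm47 (0.0638) were not. Leaving out ICC9 or HCC2.4 ended the call of all 3 (adjusted p from 0.0521 to 0.152). Leaving out ICC10, ICC2.7, ICC2.9 or HCC2.1 ended that of Esrp2 and Rbm47, and leaving out HCC4 that of Esrp2 (0.0533). With the random block Ptbp2 was called (0.0343), but Esrp2 (0.105) and Rbm47 (0.0744) were not, and with the pairs averaged none of the 3 was (0.0831 to 0.326). Single markers of cell types were called between the sex labels too, beside 2.94% of all genes, and the alternatives are not given here for them. Of 8 cholangiocyte markers 1 was called, Krt19, a keratin of bile duct epithelium, at 7.76 to 9.26 in the female-labelled and 5.60 to 6.89 in the male-labelled lines. Krt7 had the opposite sign (-0.035, limma's adjusted p = 0.855). The remaining cholangiocyte markers had the sign of Krt19, from 0.09 (Sctr) to 0.56 (Cldn4), and were not called. Of 9 fibroblast and stellate markers 1 was called, in the other direction than Krt19: Acta2, smooth muscle actin, differed by -0.5225 log2 units (limma's adjusted p = 0.0460), at 6.09 to 6.38 and 6.44 to 7.16. Col1a1 (-1.35, 0.187) and Pdgfrb (-0.80, 0.588) had the same sign and were not called. Des (-0.365) and Lrat (-0.05) had that sign too, while Lum (0.19), Reln (0.04), Dcn (0.03) and Pdgfra (0.02) had the other. The part of these markers in the results was not tested. Esrp1 lay between 3.71 and 3.89 in all lines. Rbfox2, a splicing factor of mesenchymal cells, differed by 0.23 between types (SE 0.13, limma's adjusted p = 0.455).

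**Figure D3:**
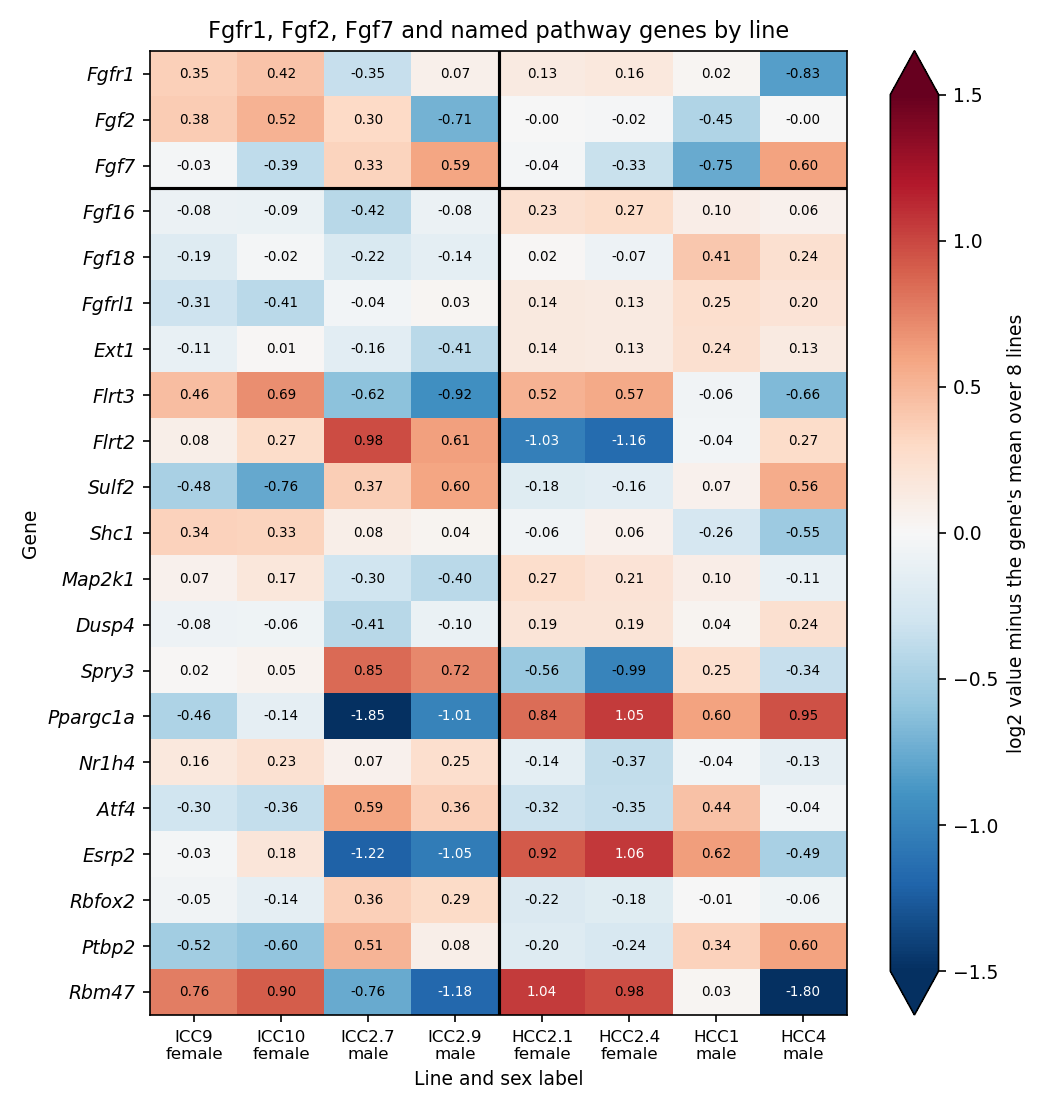
Colours and numbers give each gene's log2 value minus its own mean over the 8 lines (columns, with sex labels; ICC left of the vertical line) for Fgfr1, Fgf2 and Fgf7 (top) and the pathway genes named in the text (below). Ppargc1a, Fgf16, Fgfrl1, Ext1, Dusp4 and Nr1h4 separate the types without overlap, as do 8.63% of all genes, and limma called none of them. Flrt3 and Rbm47 are higher in all 4 female-labelled lines than in the male-labelled ones.

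Fgf15 lies near Fgf4, Fgf3 and the cyclin D1 gene Ccnd1 in the RefSeq gene order of assembly GRCm38.p6, the mouse counterpart of a region known for amplification in human HCC. These neighbours were looked at with their values in view. Ccnd1 measured 10.32 in HCC4 and 11.15 to 11.72 in the other 7 lines, and LTO1 (5.84) and Fadd (7.14) were lowest in HCC4 as well. Tpcn2, next to Ccnd1, was not: it measured 7.92 in HCC4, inside its range of 7.74 in HCC2.4 to 8.25 in ICC2.9. For Fgf15 HCC4 was highest on the probe set used (5.53) and second lowest on the other (5.18). Fgf3 lay between 4.21 and 4.86 and Fgf4 between 4.98 and 5.59, both highest in HCC1. Ano1, on the far side of Fgf3, was highest in HCC2.4 (11.60) and HCC2.1 (11.51) and lowest in ICC2.9 (10.56). ICC2.9 was also the lowest line for Fgf4 and, on the probe set used, for Fgf15. On the other Fgf15 probe set ICC2.9 measured 5.42, above every line but HCC1 (5.56). Between the types Ccnd1 differed by 0.555 log2 units without overlap (SE 0.23, limma's adjusted p = 0.316) and Ano1 by -0.30 (SE 0.23, 0.601). Fadd differed by 0.315 (SE 0.11, 0.238), also without overlap, which 8.63% of all genes showed.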

How the data were processed

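Expression of 8 lines was read from the deposited table of log2 values, which the authors made by RMA in the oligo package, per the submitters' processing notes. Their versions, the genome build and the annotation release were not given in the sources used here. RMA normalizes the arrays to a common distribution, so a shift of all genes in a line would not be seen. RNA input was 100 ng per array.

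Of 39993 probe sets, 23521 name exactly 1 gene and 1814 several in the platform annotation. Taking for each gene the brightest such probe set, by its mean over all lines, gave 22180 genes, of which 21994 were found in the RefSeq gene table under an unchanged symbol. No dim probe sets were removed.

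In R 4.3.3, limma 3.58.1 (two-sided moderated tests by eBayes after lmFit, adjusted by Benjamini-Hochberg for 22180 genes, called at an adjusted p under 0.05) tested ICC against HCC with no covariate, the sex label with type in the model, and their interaction. The code was tested on simulated data. SE is limma's moderated standard error. Python 3.11.15 and matplotlib 3.10.9 made tables and figures.

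The members and lists were chosen with earlier results of these data known. Named from each list were the genes called between types (or the 2 with the smallest p) and up to 3 called for the sex label or the interaction, and for members spanning at least 1 log2 unit the 3 most similar genes; that search skipped pseudogenes, small RNAs, RIKEN clones and predicted genes. Krt19, Acta2, Col1a1, Pdgfrb, Apob, Hnf4a, Alb, Cyp7a1, Esrp1 and the neighbours of Fgf15 lie outside this rule and were picked with their values in view. Of the pathway lists, 4 genes were not analysed here. The alternatives were other eBayes settings, normalizations, probe set rules and models, and leaving out each line. The random block and the averaging for the sex label were added after seeing the data.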

Additional observations from a re-analysis of the deposited data

Results flagged for a closer look

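In groups of 4 lines, a value was marked when its gap to the nearest other line was above Dixon's 95% critical share of the group's range, which chance meets in about 1 of 20 groups. Of 56 groups looked at, 6 were marked, 3 of them among the 20 groups of the 10 FGF genes. Fgfr1 in HCC4 (7.90) lay below the other HCC lines (8.75 to 8.89). Fgf1 in HCC4 (6.28) lay above them (5.73 to 5.82). Fgf2 in HCC1 (7.39) lay below the other HCC lines (7.82 to 7.84). Fgf16 in ICC2.7 (3.91) lay below the other ICC lines (4.23 to 4.24), and so did Dusp4 in ICC2.7 (10.66, others 10.97 to 11.01). Ext1 in HCC1 (11.13) lay above the other HCC lines (11.02 to 11.03). The cause was not tested.

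Fgf21 was also marked because ICC and HCC lines stood in opposite order under the 2 sex labels. Both female-labelled ICC lines (4.91 and 5.10) were above both female-labelled HCC lines (4.64 and 4.77), and both male-labelled ICC lines (5.14 and 4.92) were below both male-labelled HCC lines (5.19 and 5.24). The interaction was 0.485 log2 units, and limma's test of it over all genes did not pass (adjusted p = 0.195, unadjusted p = 0.0277).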

How the results depend on the processing

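Limma called 0 of the 10 FGF genes between types under all 20 alternatives run. The genes above the median level include only Fgfr1, Fgf1 and Fgf2 of the 10. Of 193 differences of the 10 genes under these alternatives 182 kept their sign and 11 turned it, the turned ones at most 0.185 in size. Many of the 193 could not turn. Other eBayes settings, the sex label, the random block, the averaging and the missing direction left each difference unchanged (0.2525 for Fgfr1). So did keeping the genes above the median level, and the mean of probe sets for genes with 1 probe set. In the female-labelled lines alone Fgfr3 measured 0.07 and Fgf7 -0.02, and in the male-labelled lines alone Fgf1 measured -0.15 and Fgf21 -0.185. Leaving out each line moved Fgfr2 from -0.0592 to 0.0275, Fgfr3 from -0.1225 to 0.0008, Fgf21 from -0.0492 to 0.1508 and Klb from -0.0375 to 0.2192. The smallest adjusted p of the 10 under any alternative was 0.0724, for Fgf2 in the female-labelled lines.

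Over all genes the count of 58 called between types was 103 above the median level, 428 with the sex label as a covariate, 12 with the missing direction, 119 with the sex label and the missing direction, 6 with a random block for lines of one type and sex label, 0 after averaging such lines (limma gave 1170 unadjusted p under 0.05), 696 in female-labelled and 200 in male-labelled lines, and 2 to 109 with each line left out. It was 2 without ICC9, 4 without HCC2.1, 5 without HCC2.4, 16 without ICC2.7, 28 without ICC2.9, 91 without HCC4 and 109 without HCC1. The 653 genes called between sex labels became 280 with the missing direction, 334 with the random block and 6 with the pairs averaged (both chosen after seeing the data), and 146 (without ICC9) to 917 (without HCC4) with a line left out. The 0 genes of the interaction became 255 with the missing direction and 0 to 238 with a line left out (238 without ICC9, 10 without ICC10). Fewer lines or genes enter some of these fits; otherwise the cause was not tested. The number of arrays and unassessed background limit all differences.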
